A study of Ovis aries with 14 samples.

Results

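Adult sheep ovaries were separated here by their level of OXT, the gene for oxytocin, which the ruminant corpus luteum makes in large amounts. Of the 14 libraries of the series, 8 came from adults, and these fell into 3 libraries high in OXT (above 10000 normalized counts) and 5 low in OXT (below 1000). The high libraries were control 6, testosterone 4 and testosterone 7, and the low libraries were control 4, control 5, control 7, testosterone 5 and testosterone 6. The classes are not groups of the study: they were selected on the measured OXT values, so OXT is given as a description without a test. The sample labels used here do not state the cycle stage of the ewes or whether an ovary carried a corpus luteum.

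The study sequenced RNA of whole frozen ovaries from wild type Suffolk sheep, at fetal day 90 (3 control and 3 testosterone fetuses) and at year 2 (4 control and 4 testosterone adults). These are the counts of the labels; the text of the series gives 3 adult controls and 4 treated adults. Mothers of the testosterone groups had been injected in the muscle with testosterone propionate, 100 mg per injection, 2 times a week from day 30 to day 90 of gestation. The protocol also gives a dose per body weight, and how it relates to the dose per injection is not stated. How animals relate to mothers or litters is not stated, so each p-value reflects the spread among these libraries, which may be technical in part. Because each library is a whole ovary, more cells of a type and more RNA per cell cannot be told apart.

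The corpus luteum forms from the theca and granulosa cells of a follicle after ovulation. Its luteal cells take up cholesterol from lipoproteins, move it into mitochondria and convert it to progesterone, and in ruminants the large luteal cells also store and release oxytocin. If no pregnancy follows, prostaglandin F2 alpha from the uterus acts on its receptor on luteal cells, steroid output stops, and macrophages enter and clear the regressing tissue.

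OXT (ENSOARG00000004595) had 94884 normalized counts in control 6, 110586 in testosterone 4 and 61704 in testosterone 7. It had 69.7 in control 4, 60.7 in control 5, 48.3 in control 7, 22.3 in testosterone 5 and 80.2 in testosterone 6. The members nearest to the boundary were therefore testosterone 7 at 61704 and testosterone 6 at 80.2, with no library between them. OXT alone took 0.233% to 0.405% of all reads in the high libraries.

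The 3 markers other than OXT that describe luteal tissue followed the same split. STAR (ENSOARG00000001269), the protein that moves cholesterol into mitochondria, had 36624, 35001 and 49611 normalized counts in control 6, testosterone 4 and testosterone 7, and 3396, 1314, 1131, 584 and 1506 in control 4, 5 and 7 and testosterone 5 and 6. HSD3B1 (ENSOARG00000020402), which makes progesterone from pregnenolone, had 10891, 16594 and 17541 in the same high libraries and 566, 380, 655, 570 and 784 in the low ones. PTGFR (ENSOARG00000013402), the prostaglandin F2 alpha receptor, had 11469, 7804 and 2439 in the high libraries and 453, 162, 184, 606 and 361 in the low ones. For each marker every high library lay above every low library, as was the case for 14.4% of all genes tested, and the ratio of class means was 25.5 for STAR, 25.4 for HSD3B1 and 20.5 for PTGFR. Within the high class PTGFR varied most, testosterone 7 having the lowest level although its STAR and HSD3B1 levels were the highest.

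Depth was 22.6 to 33.4 M reads per adult library. Control 4 stood apart from the other low libraries: its mean correlation with them over all genes was 0.869, against 0.925 to 0.944 for the others, and it was the highest of the 5 for 5666 genes and the lowest for 5501. On the principal component with 44.6% of the variance the high libraries were on 1 side (-85.1 to -74.3) and the low libraries on the other, with control 4 at 0.31 and the other 4 from 45.2 to 80.3; control 4 lay alone on the next component, with 29.0%. List counts that follow are therefore also given without control 4.

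Between the classes 2618 of 15757 genes (16.6%) passed limma's test at an adjusted p under 0.05, 1639 (10.4%) higher and 979 (6.21%) lower in the high libraries. Without control 4, 5259 of 15660 genes passed (33.6%), 2863 higher (18.3%) and 2396 lower (15.3%), and 2616 of the 2618 calls were kept in the same direction. Over all genes tested the median log2 difference, high minus low, was -0.04. The shares of all genes given here are the background for each list count below, with and without control 4. The count was 1367 without control 6, 937 without testosterone 4, 1562 without testosterone 5, 1486 without testosterone 6 and 1425 without testosterone 7, and 833 genes were called in every fit that left out 1 library. These p-values say how closely a gene followed a split of the libraries that was made with the values known.

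Genes of luteal steroid synthesis were 5 higher (10.4% of all genes were) and 1 lower (6.21%) among 13 measured. Their median log2 difference was 1.17. Without control 4 they were 8 higher (18.3% of all genes) and 1 lower (15.3%). CYP11A1, the mitochondrial enzyme that cuts the cholesterol side chain, had 37534, 49385 and 54577 normalized counts in control 6, testosterone 4 and testosterone 7, and 3421, 1649, 2526, 1048 and 2465 in the 5 low libraries (control 4, 5, 7, testosterone 5, 6; this order is kept in what follows). Its means were 47165 ± 8736 (SD, n = 3) and 2222 ± 908 (SD, n = 5), a log2 difference of 4.50 (SE 0.35, limma adjusted p = 2.79e-04). FDX1, the ferredoxin that passes electrons to that enzyme, rose from 772 ± 138 to 4775 ± 835 (log2 difference 2.63, SE 0.19, limma adjusted p = 1.53e-04). The classes did not overlap for either gene, the high libraries lying above, as for 14.4% of all genes tested. The fifth higher member besides STAR and HSD3B1 was HSD11B2, which inactivates glucocorticoids (limma adjusted p = 0.0448), and its call was lost without control 5, 6 or 7 or testosterone 4, 5 or 7 (largest adjusted p = 0.184).

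Other members of the steroid list differed less. FDXR, the reductase before ferredoxin, had 2295 to 2992 in the high and 668 to 2017 in the low libraries and missed the threshold (limma adjusted p = 0.0673; 0.0321 without control 4 and 0.0457 without control 7). TSPO, a protein of the outer mitochondrial membrane, had 3049 to 3980 in the high libraries and 1012 to 1578 in 4 low ones, but 3703 in control 4, and missed the threshold with that library and passed without it (limma adjusted p = 0.0731 and 7.97e-04). CYB5A, cytochrome b5, which aids the lyase step towards androgens, was the 1 member that was lower, with 575 ± 71.5 in the high and 1122 ± 296 in the low libraries (log2 difference -0.93, SE 0.23, limma adjusted p = 0.0274). The call for CYB5A was lost without control 6 or any of the 4 testosterone libraries, with a largest adjusted p of 0.0974. LHCGR, PGR and CYP19A1 were not analysed here.

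**Figure D1:**
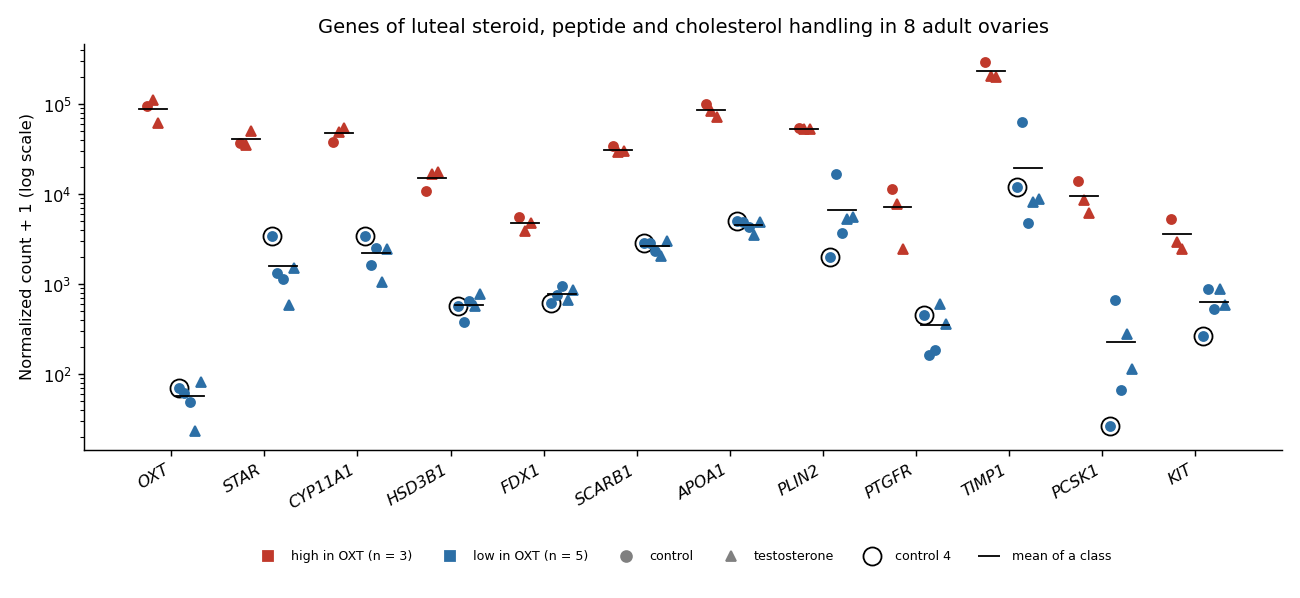
Normalized counts plus 1 on a log axis for 12 genes of luteal steroid, peptide and cholesterol handling, 1 point per adult library, with red for the 3 libraries high in OXT, blue for the 5 low in OXT, circles for controls, triangles for testosterone, a ring around control 4 and a bar at each class mean. For each gene, chosen with its values known, every red point lies above every blue point, which holds for 14.4% of all genes tested; KIT, TIMP1 and PLIN2 have the closest blue points, each from control 5.

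Genes for cholesterol uptake, storage and transport were 7 higher (10.4% of all genes were) and 0 lower of 16 measured by limma. Their median log2 difference was 0.75 (9 higher and 0 lower without control 4). SCARB1, the receptor for high density lipoprotein, had 34148, 28985 and 30448 normalized counts in the high libraries and 2875, 2834, 2349, 2039 and 3007 in the low libraries. That was a log2 difference of 3.58 (SE 0.16, limma adjusted p = 1.52e-05), and the low libraries, control 4 included, were within 2039 to 3007. APOA1, the main protein of that lipoprotein, had 100689, 83688 and 71402 in the high and 4972, 4942, 4343, 3528 and 4888 in the low libraries (log2 difference 4.23, SE 0.18, limma adjusted p = 1.42e-05).

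Genes of cholesterol storage and release were also among the 7. PLIN2, a coat protein of lipid droplets, had 53949, 53022 and 52892 normalized counts in the high libraries, almost the same in each, and 2021, 16675, 3707, 5241 and 5560 in the low ones (log2 difference 3.37, SE 0.55, limma adjusted p = 0.00577). LIPA, the lysosomal lipase that frees cholesterol from its esters, rose from 1886 ± 870 to 14043 ± 5656 (log2 difference 2.96, SE 0.40, limma adjusted p = 0.00274). NPC1, which exports cholesterol from lysosomes, and SOAT1, which makes cholesterol esters, were 2.79 and 2.36 times as high in the high libraries (limma adjusted p = 0.00148 and 0.00188).

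The cholesterol synthesis pathway was 11 higher (10.4% of all genes were) and 1 lower of 21 measured. Its median log2 difference was 1.02 (12 higher and 1 lower without control 4). TM7SF2, a sterol reductase late in the pathway, changed most, with 4009, 4487 and 3390 normalized counts in the high and 223, 459, 530, 425 and 524 in the low libraries (log2 difference 3.25, SE 0.28, limma adjusted p = 4.87e-04). HMGCS1, a synthase early in the pathway, rose from 1562 ± 397 to 3921 ± 682 (log2 difference 1.35, SE 0.22, limma adjusted p = 0.0057). CYP51A1, the lanosterol demethylase, rose from 704 ± 289 to 2230 ± 153 (log2 difference 1.75, SE 0.30, limma adjusted p = 0.00705). The lower member was SREBF1, a transcription factor of lipid synthesis named after its values were seen, with 961 to 1185 in the high and 1398 to 2291 in the low libraries (limma adjusted p = 0.0318); it lost its call without control 6, control 7, testosterone 4, testosterone 6 or testosterone 7 (largest adjusted p = 0.128).

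Receptors and growth genes of the corpus luteum were 3 higher (10.4% of all genes were) and 0 lower of 8 measured by limma. Their median log2 difference was 0.24 (4 higher and 0 lower without control 4). The 3 were PTGFR, PRLR and TIMP1. TIMP1, an inhibitor of metalloproteases that luteal cells secrete, had 289448, 205109 and 197641 normalized counts in the high libraries and 11858, 63525, 4812, 8221 and 8771 in the low ones (log2 difference 4.23, SE 0.71, limma adjusted p = 0.00633). It took 0.748% to 1.07% of all reads in the high libraries and 0.0203% to 0.255% in the low ones, control 5 being the highest of the low class. PRLR, the prolactin receptor, had 615, 260 and 87.3 in the high and 23.6, 75.1, 15.7, 77.0 and 29.8 in the low libraries (limma adjusted p = 0.0362); this call was lost without control 6, control 7, testosterone 4 or testosterone 6 (largest adjusted p = 0.136). OXTR, the oxytocin receptor, was scarce in every library, with 4.09 to 34.8 in the high and 29.4 to 83.8 in the low libraries (limma adjusted p = 0.116), and GHR, the growth hormone receptor, had 903 to 1160 and 532 to 1197 (limma adjusted p = 0.369).

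Oxytocin is cut from a longer precursor and its end is then amidated. Of 10 measured genes for processing of peptide hormones, 2 were higher and 0 lower by limma, near the share of all genes called (16.6%). The median log2 difference was -0.22, and 6 of the 10 had a negative difference. Without control 4 they were 2 higher and 1 lower, against 33.6% of all genes called. PCSK1, a protease that cuts prohormones, had 14113, 8534 and 6092 normalized counts in the high libraries and 26.0, 658, 65.1, 282 and 114 in the low ones (log2 difference 6.11, SE 0.91, limma adjusted p = 0.00381). The high libraries were thus all above the low ones (as for 14.4% of all genes tested) although the low ones spread widely. PCSK5, a related protease, rose from 480 ± 160 to 1093 ± 90.6 (limma adjusted p = 0.025), a call lost without control 6 or any of the 4 testosterone libraries (largest adjusted p = 0.0896). CHGA, chromogranin A of secretory granules, had 272 to 475 in the high libraries and 1597 to 2006 in 4 low ones, but 76.7 in control 4, and it missed the threshold with that library and passed without it (limma adjusted p = 0.399 and 2.82e-04). With DESeq2 it passed on all 8 libraries (adjusted p = 0.039).

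Genes of theca cells, the androgen-making layer around the follicle, were mostly lower in the high libraries. Of 9 theca genes measured, 0 were higher and 6 lower (6.21% of all genes were) by limma. The median log2 difference was -1.69, and without control 4 the count of lower genes was 8 (15.3% of all genes). CYP17A1, which makes androgens, had 1.62, 15.3 and 5.67 normalized counts in the high libraries, from 2, 15 and 5 reads, and 183, 1035, 1196, 318 and 2811 in the low ones (log2 difference -6.79, SE 0.92, limma adjusted p = 0.00262). GLI1, a target gene of hedgehog signals that granulosa cells send to the theca, had 28.3, 19.4 and 61.2 in the high and 351, 692, 1267, 723 and 719 in the low libraries (log2 difference -4.38, SE 0.46, limma adjusted p = 9.94e-04). Every high library lay below every low one for both genes, as for 11.9% of all genes tested. Control 4 was the lowest of the low class for each.

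The other theca genes had differences of the same sign. INSL3, a peptide hormone of theca cells, had 522, 245 and 135 normalized counts in the high and 966, 4975, 6602, 2589 and 29961 in the low libraries (log2 difference -4.20, SE 0.96, limma adjusted p = 0.0197); this call was lost without testosterone 4 or testosterone 7 (largest adjusted p = 0.0821). HHIP, a hedgehog-binding protein that hedgehog signals induce, fell from 98.3 ± 62.5 to 3.33 ± 2.03 (log2 difference -4.24, SE 0.76, limma adjusted p = 0.00779). HHIP had only 7, 2 and 2 reads in the high libraries and 14 in control 4. PTCH1, the hedgehog receptor, had 279 to 745 in the high libraries and 1810 to 2655 in 4 low ones, but 505 in control 4, and it missed the threshold with control 4 and passed without it (limma adjusted p = 0.0613 and 0.00165). With DESeq2 it passed on all 8 libraries (adjusted p = 0.00358). Of the 9 theca genes, 9 had a negative difference.

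**Figure D2:**
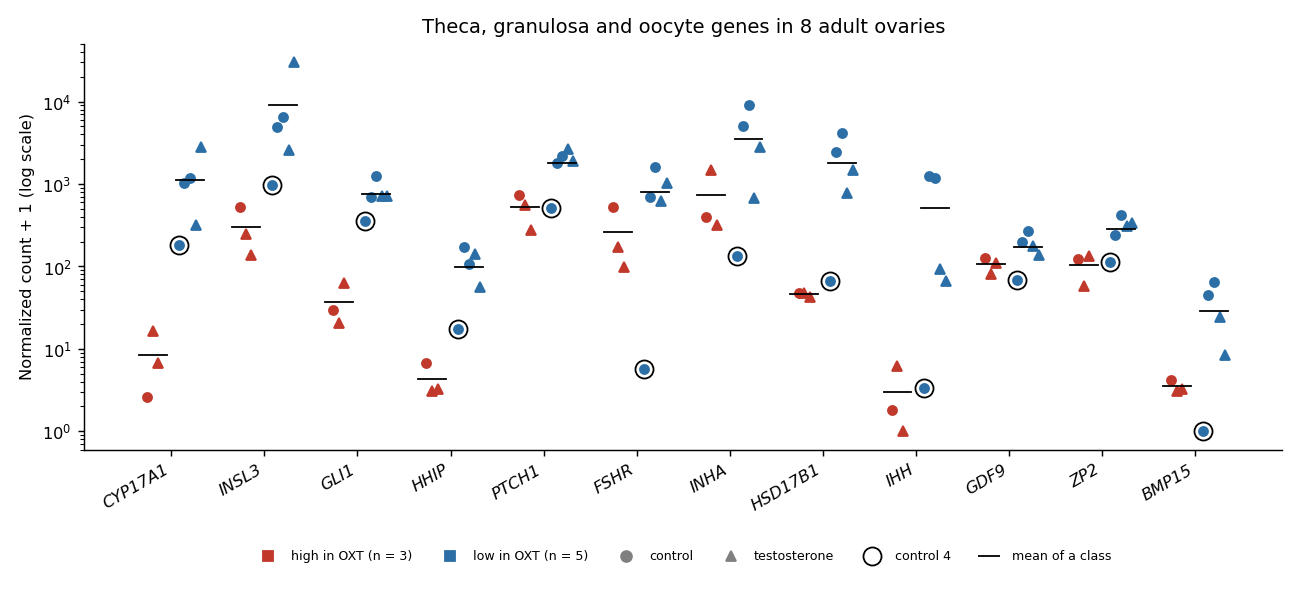
Normalized counts plus 1 on a log axis for 12 theca, granulosa and oocyte genes, 1 point per adult library, with the colours and marks as in the plot of luteal genes. For CYP17A1, INSL3, GLI1, HHIP and HSD17B1 every blue point lies above every red one, which holds for 11.9% of all genes tested. For PTCH1, FSHR, INHA, IHH, GDF9, ZP2 and BMP15 the ringed point of control 4 lies at or below the level of the red points.

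Granulosa genes, from the cells inside the follicle, were 1 higher and 1 lower of 14 measured, near the share of all genes called (16.6%). Their median log2 difference was -0.37. Without control 4 they were 2 higher and 5 lower, against 33.6% of all genes called. HSD17B1, which makes estradiol from estrone, had 46.2, 46.0 and 42.0 normalized counts in the high libraries and 64.9, 2460, 4117, 785 and 1461 in the low ones (log2 difference -4.38, SE 1.14, limma adjusted p = 0.0326). Its call was lost when any library other than control 4 was left out (largest adjusted p = 0.111), and without control 4 the log2 difference was -5.34 (limma adjusted p = 2.64e-04). FSHR, the receptor for follicle stimulating hormone, had 521, 170 and 97.5 in the high libraries, 705, 1612, 620 and 1020 in 4 low ones and 4.72 in control 4. IHH, the hedgehog ligand of granulosa cells, had 0.81, 5.11 and 0 in the high libraries and 2.36, 1259, 1172, 92.8 and 65.3 in the low ones. Control 4 thus shared low levels of granulosa genes with the high libraries, and with it both genes missed the threshold (limma adjusted p = 0.81 for FSHR and 0.0576 for IHH; 0.0159 and 0.00271 without it). IHH did pass with edgeR on all 8 libraries (adjusted p = 0.0439) and with quantile normalization (limma adjusted p = 0.0377). The higher granulosa-list member was SLC39A8, a zinc transporter, with 2204, 1010 and 1159 in the high and 156, 51.4, 39.9, 145 and 30.8 in the low libraries (log2 difference 4.32, SE 0.59, limma adjusted p = 0.0027).

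Oocyte genes were 1 higher (10.4% of all genes were) and 2 lower (6.21%) of 9 measured. Without control 4 they were 1 higher (18.3% of all genes) and 6 lower (15.3%). ZP2, a zona pellucida protein, had 122, 57.3 and 134 normalized counts in the high and 111, 240, 424, 312 and 334 in the low libraries (limma adjusted p = 0.0705; 0.0058 without control 4). GDF9, an oocyte growth factor, had 80.8 to 126 in the high and 67.3 to 272 in the low libraries (limma adjusted p = 0.395; 0.0462 without control 4). The member that was higher was KIT, a receptor kinase that somatic ovarian cells also express, with 5267, 2957 and 2482 in the high and 262, 892, 533, 873 and 582 in the low libraries (log2 difference 2.55, SE 0.42, limma adjusted p = 0.00565). In the high libraries KIT made up most of the summed level of the list, which was higher there (2920 to 5898 against 704 to 2288) although 7 of 9 members had negative differences.

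Macrophage and myeloid genes were 19 higher and 0 lower of 22 measured by limma, against 16.6% of all genes called, with a median log2 difference of 2.93. Without control 4 they were 21 higher and 0 lower. Their summed level was 113490 to 121975 normalized counts in the high libraries and 9613 to 42136 in the low ones, control 4 being the highest of the low class. None of the defining markers CD68, CD163, CSF1R and C1QA was at 0 in any adult library. The part of these cells in the differences of other genes was not tested.

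CD68, a lysosomal protein of macrophages, had 5746, 7879 and 6769 normalized counts in the high and 641, 1072, 928, 750 and 2033 in the low libraries (log2 difference 2.76, SE 0.34, limma adjusted p = 0.00192). CD163, the scavenger receptor for haemoglobin, had 2843, 2243 and 4010 in the high and 429, 314, 82.9, 186 and 123 in the low libraries (log2 difference 3.94, SE 0.51, limma adjusted p = 0.00222). MSR1, a scavenger receptor for modified lipoproteins, and ITGAM, an integrin of myeloid cells, were 17.3 and 20.1 times as high (limma adjusted p = 0.00102 and 0.00126). CSF1R, the receptor for the macrophage growth factor, was 1 of the 3 that missed, with 1584 to 2510 in the high libraries, 294 to 865 in 4 low ones and 1857 in control 4 (limma adjusted p = 0.0769; 0.00679 without control 4).

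Of 14 lymphocyte genes measured, 2 were higher and 0 lower by limma, a share near that of all genes (16.6%), with a median log2 difference of 0.21. Without control 4 they were 4 higher and 1 lower. CD3E, part of the T cell receptor, had 385, 196 and 203 normalized counts in the high and 320, 259, 176, 340 and 286 in the low libraries (limma adjusted p = 0.828). The 2 called genes were NKG7, of cytotoxic cells, which rose from 186 ± 31.5 to 400 ± 73.1 (limma adjusted p = 0.012; 0.0604 without testosterone 4), and PTPRC, which all white blood cells express (limma adjusted p = 0.0376). The call for PTPRC was lost without control 5, control 6, testosterone 4, testosterone 6 or testosterone 7 (largest adjusted p = 0.123). Of 19 interferon response genes 1 was higher (10.4% of all genes were) and 0 lower by limma. Without control 4, 7 were higher (18.3% of all genes). ISG15, an interferon-induced modifier protein, had 351 and 435 in control 6 and testosterone 4 but 3100 in testosterone 7, and among the low libraries 1370 in control 4 against 69.3 to 118 in the others (limma adjusted p = 0.173). MX1, an interferon-induced antiviral protein, likewise had 10851 in testosterone 7 and 4971 in control 4 against 714 to 1853 in the other 6.

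**Figure D3:**
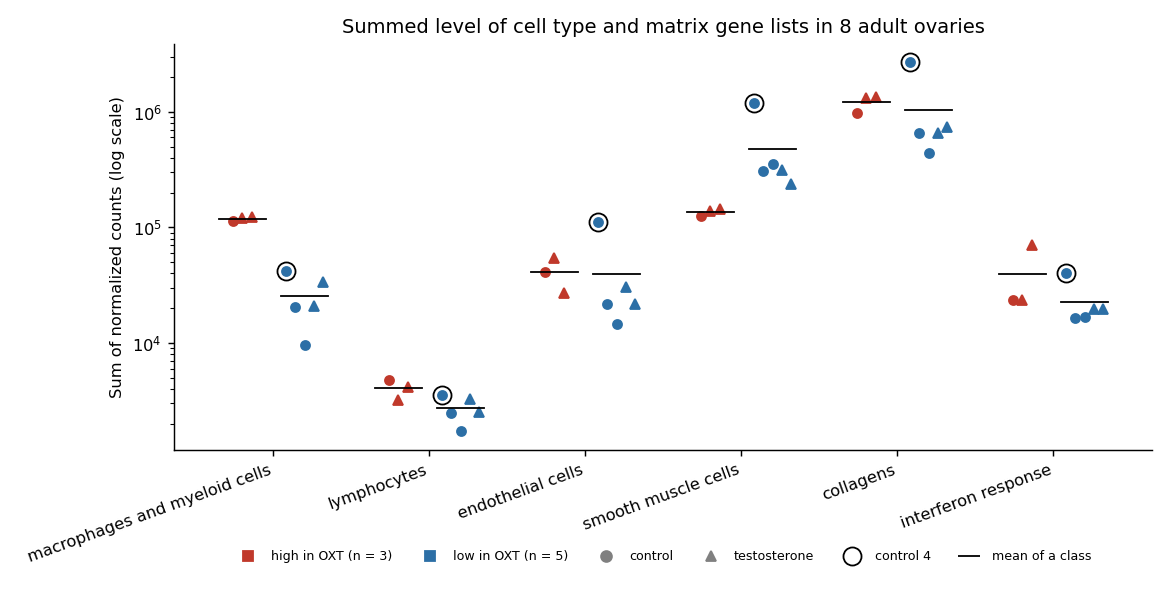
Summed normalized counts of 6 gene lists on a log axis, 1 point per adult library, with red for high in OXT, blue for low in OXT, triangles for testosterone, a ring around control 4 and bars at the class means. The macrophage sums of the 3 red points (113490 to 121975) lie above all blue points; in the endothelial, smooth muscle and collagen lists control 4 is the highest library of all.

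Smooth muscle genes had a negative difference for 14 of 14 measured, with a median log2 difference of -1.39. By the test 0 were higher and 2 lower by limma (6.21% of all genes were lower). Without control 4, 12 were lower (15.3% of all genes). For 11 of the 14 every high library lay below every low one, as for 11.9% of all genes tested. MYH11, the myosin of smooth muscle, had 21481, 21628 and 21146 normalized counts in the high libraries and 278273, 84745, 111582, 93644 and 71597 in the low ones (log2 difference -2.39, SE 0.41, limma adjusted p = 0.0067; log2 difference -2.06 without control 4). The other lower gene was TPM1, a tropomyosin, which fell from 41186 ± 11944 to 15513 ± 3337 (limma adjusted p = 0.00935; 0.053 without testosterone 4). ACTA2, smooth muscle actin, had 25329 to 30556 in the high libraries, 45678 to 66473 in 4 low ones and 255838 in control 4, and missed the threshold with that library and passed without it (limma adjusted p = 0.0652 and 0.0022). With control 4 it passed under quantile normalization (limma adjusted p = 0.0155) and with DESeq2 (adjusted p = 0.00516). The classes thus stayed apart for MYH11 and ACTA2, the high libraries lying below, as for 11.9% of all genes tested. Control 4 was far above the remaining low libraries for both. DES, desmin, had 2365 to 2643 in the high and 2153 to 8133 in 4 low libraries, with 95832 in control 4 (limma adjusted p = 0.257).

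Endothelial genes were 0 higher and 0 lower of 11 measured by limma, against 16.6% of all genes called. Without control 4, 6 were higher, above the 18.3% of all genes. PECAM1, a junction protein of endothelial cells, had 6999, 9393 and 3939 normalized counts in the high libraries and 2084, 1763, 2166 and 1610 in 4 low ones, but 14189 in control 4 (limma adjusted p = 0.266; 0.00211 without control 4). CDH5, the endothelial cadherin, showed the same order, with 4828 to 7842 in the high libraries, 1839 to 3618 in 4 low ones and 10978 in control 4 (limma adjusted p = 0.259; 0.0066 without control 4). The list of angiogenic factors and receptors was 0 higher and 3 lower of 26 by limma (5 higher and 4 lower without control 4). These counts were below and near the shares of all genes called, 16.6% and 33.6% respectively. ANGPT2, which loosens vessel walls by opposing angiopoietin 1, had 856, 984 and 682 in the high and 2572, 5298, 10738, 6000 and 11261 in the low libraries (log2 difference -2.92, SE 0.45, limma adjusted p = 0.00428).

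Of 13 stromal genes 2 were higher and 0 lower by limma, near the share of all genes called (16.6%). Without control 4 they were 6 higher and 1 lower, against 33.6% of all genes called. POSTN, a matrix protein of tissue remodelling, had 22230, 11037 and 17179 normalized counts in the high and 3324, 1877, 1281, 852 and 726 in the low libraries (log2 difference 3.55, SE 0.48, limma adjusted p = 0.00262). LUM, lumican, which binds collagen fibres, rose from 11830 ± 1429 to 39271 ± 13219 (log2 difference 1.69, SE 0.21, limma adjusted p = 0.00214). Collagen genes were 1 higher and 0 lower of 15 by limma, below the 16.6% of all genes called. Without control 4 they were 9 higher, above the 18.3% of all genes, and 1 lower (15.3% of all genes). COL1A1, the main chain of fibrous collagen, had 323799 to 525367 in the high libraries, 113782 to 275023 in 4 low ones and 880658 in control 4 (limma adjusted p = 0.469; 0.0319 without control 4). Metalloproteases and their inhibitors were 5 higher (10.4% of all genes were) and 0 lower of 17 by limma. Without control 4 they were 6 higher (18.3% of all genes) and 1 lower. The 5 were TIMP1, TIMP2, ADAMTS4, MMP19 and MMP14, the last named after its values were seen. All but TIMP1 lost their call in 5 to 7 of the 8 fits that left out 1 library, every one of them without testosterone 4 (largest adjusted p = 0.0965 to 0.133).

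Genes of mitochondrial respiration encoded in the nucleus were 10 higher (10.4% of all genes were) and 0 lower of 18 by limma. Their median log2 difference was 0.68, with a positive difference for all 18 (16 higher without control 4). The changes were small. NDUFS1, a subunit of complex I, had 2793, 3212 and 2526 normalized counts in the high and 1497, 1388, 1497, 1235 and 1250 in the low libraries (log2 difference 1.05, SE 0.14, limma adjusted p = 0.00238). UQCRC2, a core protein of complex III, rose from 2479 ± 311 to 4640 ± 697 (log2 difference 0.90, SE 0.15, limma adjusted p = 0.0068), and NDUFV2, also of complex I, from 2162 ± 351 to 4056 ± 543 (log2 difference 0.91, SE 0.17, limma adjusted p = 0.00829).

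Antioxidant enzymes were 9 higher (10.4% of all genes were) and 0 lower of 20 by limma. Their median log2 difference was 0.69 (9 higher and 1 lower without control 4). MGST1, a microsomal glutathione transferase, had 1989, 1897 and 2671 normalized counts in the high and 222, 333, 293, 280 and 317 in the low libraries (log2 difference 2.91, SE 0.19, limma adjusted p = 1.21e-04). PRDX6, a peroxiredoxin that repairs oxidised lipids, had 21114, 9746 and 13046 in the high and 3556, 4969, 3835, 3933 and 3703 in the low libraries (log2 difference 1.81, SE 0.24, limma adjusted p = 0.00239). SOD3, the secreted superoxide dismutase, rose from 4128 ± 2834 to 12994 ± 1031 (limma adjusted p = 0.0202), a call lost without control 6 or any of the 4 testosterone libraries (largest adjusted p = 0.0801).

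Among 20 genes of cell death and luteal regression 6 were higher (10.4% of all genes were) and 0 lower by limma. Their median log2 difference was 0.64. The counts were the same without control 4, where 18.3% of all genes were higher. CASP8, the caspase that death receptors activate, had 2065, 3336 and 3336 normalized counts in the high and 764, 786, 795, 697 and 582 in the low libraries (log2 difference 1.98, SE 0.20, limma adjusted p = 8.61e-04). CCL2, a chemokine that attracts monocytes, had 955, 2680 and 3510 in the high and 381, 337, 56.7, 51.1 and 55.9 in the low libraries (log2 difference 4.15, SE 0.81, limma adjusted p = 0.011; 0.0585 without testosterone 4). BAX, which opens the outer mitochondrial membrane, was 2.17 times as high (limma adjusted p = 0.00935; 0.0517 without testosterone 4). PTGS2, the inducible prostaglandin synthase, had 39.7 to 49.4 in the high libraries and 54.6 to 93.8 in 4 low ones, with 436 in control 4 (limma adjusted p = 0.225), and of its list of 10 prostaglandin genes 0 passed by limma, with 2 higher and 1 lower without control 4.

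The insulin-like growth factor system was 2 higher (10.4% of all genes were) and 3 lower (6.21%) of 18 measured. Without control 4 it was 5 higher (18.3% of all genes) and 4 lower (15.3%). IGFBP2, a binding protein for these growth factors, had 6813, 5337 and 3948 normalized counts in the high and 16862, 25307, 32699, 29924 and 39617 in the low libraries (log2 difference -2.41, SE 0.29, limma adjusted p = 0.00178). STC1, stanniocalcin 1, which blocks the protease PAPPA, rose from 246 ± 48.4 to 776 ± 170 (log2 difference 1.66, SE 0.23, limma adjusted p = 0.00301). IGF2, the growth factor itself, had 2639 to 5307 in the high and 2364 to 8846 in the low libraries and did not pass (limma adjusted p = 0.472).

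Transcription factors of luteinization were 1 higher (10.4% of all genes were) and 3 lower (6.21%) of 10. Without control 4 they were 3 higher (18.3% of all genes) and 4 lower (15.3%). The higher member was NR4A2, a nuclear receptor. It had 475, 936 and 383 normalized counts in the high and 305, 202, 170, 213 and 172 in the low libraries (limma adjusted p = 0.02). Its call was lost without control 6, testosterone 4 or testosterone 6 (largest adjusted p = 0.0846). CITED4, a co-activator, fell from 690 ± 175 to 259 ± 47.1 (log2 difference -1.39, SE 0.24, limma adjusted p = 0.0068). GATA6, a factor of steroidogenic gonadal cells, had 905 to 1163 in the high and 1286 to 1850 in the low libraries (limma adjusted p = 0.0251), a call lost without control 5 or any of the 4 testosterone libraries (largest adjusted p = 0.115). Immediate early genes were 2 higher (10.4% of all genes were) and 0 lower of 15 by limma, and 7 higher and 1 lower without control 4. EGR2, a transcription factor among them, had 2035, 3280 and 1274 in the high and 435 to 704 in the low libraries (log2 difference 1.85, SE 0.29, limma adjusted p = 0.00501). Cell division genes were 0 higher and 2 lower of 19 (1 higher and 2 lower without control 4). MCM5, a helicase subunit for DNA replication, fell from 1833 ± 420 to 707 ± 53.7 (log2 difference -1.34, SE 0.20, limma adjusted p = 0.00406). WT1, a transcription factor of the ovarian surface and of granulosa cells, was the 1 of 11 epithelial genes that was called (2 lower without control 4). It was at 1022 to 1366 in the high and 2228 to 2924 in the low libraries (limma adjusted p = 0.00201). Heat shock genes were 0 of 7 called by limma (also 0 without control 4). Ribosomal protein genes were 0 higher and 1 lower of 17 (6.21% of all genes were lower), and 4 lower without control 4 (15.3%). Of the 17, 16 had a negative difference, with a median log2 difference of -0.29. For 8 of the 17 every high library lay below every low one, as for 11.9% of all genes tested. Their summed level was 640201 to 811124 in the high and 818564 to 942656 in the low libraries.

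**Figure D4:**
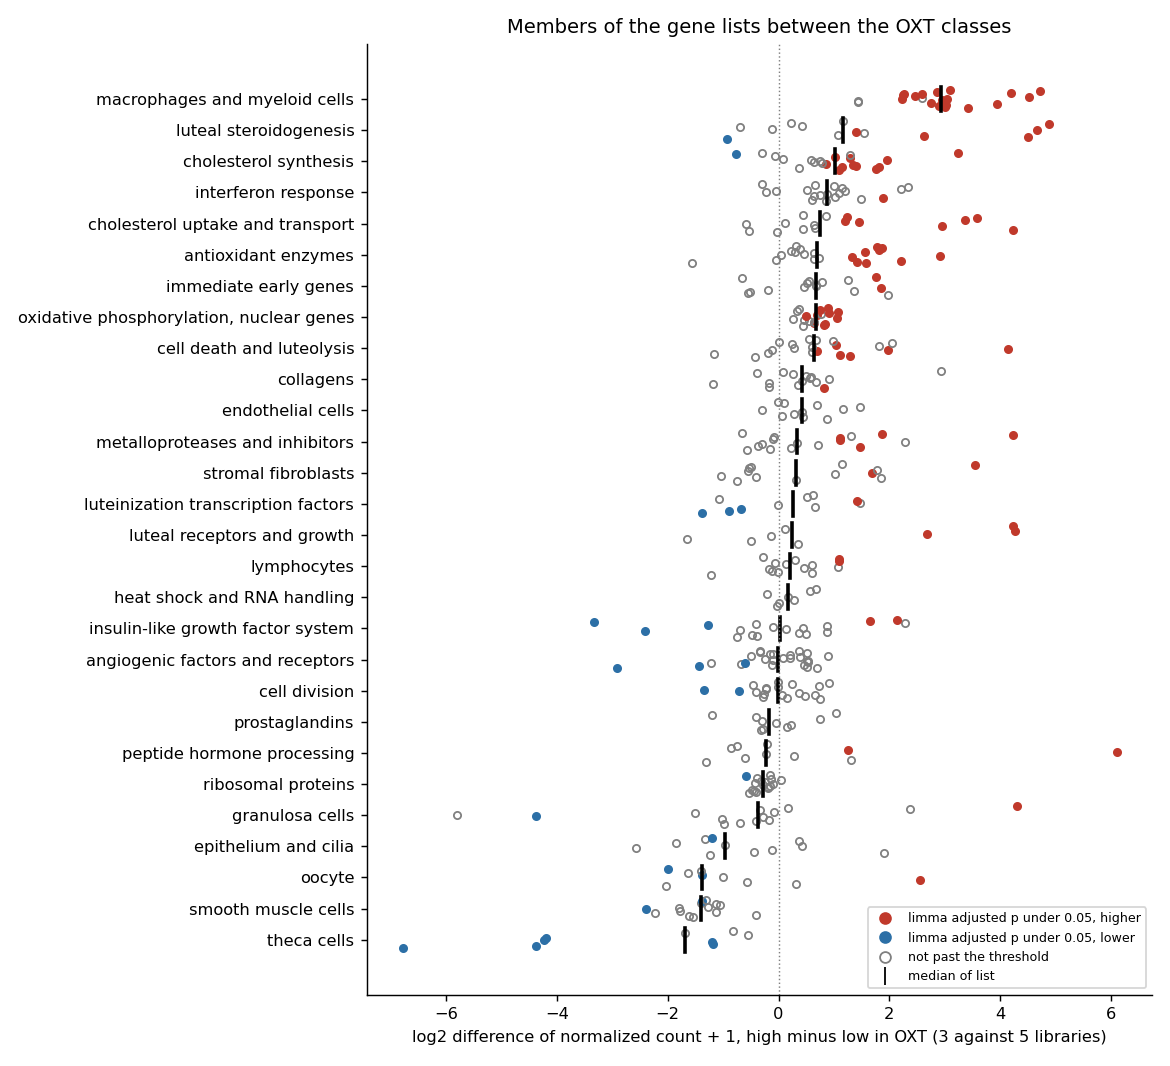
Log2 difference of normalized count plus 1, high minus low in OXT, for each measured member of the 28 gene lists with at least 5 members, ordered by the list median (black bar), with red for genes called higher by limma, blue for called lower and open grey for not called. The macrophage list has the highest median (2.93), followed by luteal steroidogenesis (1.17) and cholesterol synthesis (1.02), and the theca list has the lowest (-1.69).

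Outside the lists, the 15 named genes with the largest rise (called, classes apart, mean of at least 100) included secreted peptides and matrix proteins. TRH, thyrotropin-releasing hormone, had 6787, 4654 and 3600 normalized counts in the high libraries and 7.08, 8.22, 2.10, 3.71 and 3.73 in the low ones (log2 difference 9.78, SE 0.42, limma adjusted p = 1.42e-05). TFF2, a trefoil peptide known from the stomach lining, had 21157, 18330 and 10396 in the high and 9.45, 29.8, 15.7, 53.8 and 66.2 in the low libraries (log2 difference 9.11, SE 0.60, limma adjusted p = 1.21e-04). SPP1, osteopontin, a secreted protein of bone and of activated macrophages, had 56062, 27990 and 45747 in the high and 56.7, 256, 52.5, 51.1 and 110 in the low libraries (log2 difference 8.92, SE 0.53, limma adjusted p = 8.36e-05). The rule chose these 15 genes, and the 15 of largest fall, as called genes with a large difference and classes that do not overlap. Their values and adjusted p-values are therefore a description. The mean of at least 100 spans both classes, so a gene scarce in the low class could reach it through the high class.

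SST, somatostatin, had 359, 233 and 1928 normalized counts in the high libraries, while 4 low libraries had 0 reads and testosterone 6 had 1 read. SERPINA5, a protease inhibitor, had 11721, 7654 and 6755 in the high and 22.4 to 68.2 in the low libraries (limma adjusted p = 3.17e-05). IL1RL1, the receptor for interleukin 33, had 4109, 2706 and 1784 in the high and 26.2 to 48.4 in the low libraries (limma adjusted p = 3.76e-05). Neutrophil and monocyte proteins were among the 15: S100A8 had 149 to 493 in the high and 0 to 9.25 in the low libraries, S100A12 had 463 to 1755 and 0.932 to 67.9, and FCN1 had 180 to 443 and 0 to 18.5. In all 3 of these, control 5 was the highest of the low libraries. The other members of the 15 were MEPE, KIAA1324, MMP12 (macrophage elastase), LVRN (an aminopeptidase), QPCT (which cyclises the N terminus of peptides) and SERPINA11.

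The 15 genes with the largest fall, chosen by the same rule and also a description, included CYP17A1, HSD17B1, GLI1, INSL3 and ANGPT2 from the lists. ADRA1D, an adrenergic receptor, had 40.5, 27.6 and 10.2 normalized counts in the high and 1143, 520, 415, 329 and 339 in the low libraries (log2 difference -4.37, SE 0.53, limma adjusted p = 0.0018). FBN3, a fibrillin, had 18.4 to 26.7 in the high and 70.8 to 628 in the low libraries (log2 difference -3.24, SE 0.61, limma adjusted p = 0.00972). CHL1, a cell adhesion protein of nerve tissue, had 8.18 to 17.0 and 47.2 to 319 (log2 difference -3.41, SE 0.63, limma adjusted p = 0.00888). ADGRG6, an adhesion receptor of Schwann cells among others, fell from 1183 ± 393 to 171 ± 71.6 (limma adjusted p = 0.00223). The others were NMB, ACSBG1, CDH19, MAPK4, FHAD1 and HEY2. Of these, HEY2 lost its call when any library other than control 4 was left out (largest adjusted p = 0.156), and it did not pass with edgeR (adjusted p = 0.0583). CDH19 lost its call without control 6, control 7 or any of the 4 testosterone libraries (largest adjusted p = 0.122). NMB lost it without control 6 or any of those 4 (largest adjusted p = 0.116). ACSBG1 lost it without control 6, testosterone 4 or testosterone 7 (largest adjusted p = 0.0647).

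Prenatal testosterone and the OXT classes crossed in part: the high class held 1 control and 2 testosterone libraries, and the low class 3 and 2. With treatment as a covariate limma called 1287 genes higher and 624 lower, and 1868 of the 2618 calls were kept. In the fit with a term for the difference of the class effect between testosterone and control, limma called 0 of 15757 genes (the smallest adjusted p was 1, and 326 genes had a raw, unadjusted p under 0.05), with the control arm resting on 1 high library. SCARB1, for example, had 34148 normalized counts in the high control against 28985 and 30448 in the high testosterone libraries, and 2349 to 2875 in the low controls against 2039 and 3007 in the low testosterone libraries.

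Fetal ovaries, which hold no corpus luteum, were set beside the adult classes in RPM, the reads of a gene per M reads of its library, because the fetal table had been normalized separately; these are descriptions without a test, and age and table cannot be told apart. OXT had 1.90 to 5.45 RPM in the 6 fetal libraries, 0.916 to 3.17 in the low adults and 2334 to 4048 in the high adults. STAR had 26.1 to 37.4 in the fetal libraries, 24.0 to 102 in the low adults and 1281 to 1877 in the high adults. HSD3B1 had 14.1 to 22.0 in the fetal libraries, 15.3 to 31.0 in the low adults and 403 to 664 in the high adults. The low adult and fetal ranges thus overlapped for these 3 genes, and the high adults lay far above both. For STAR the overlap rested on testosterone 5 at 24.0, and the other low adults (47.7 to 102) lay above every fetal library. For HSD3B1 control 7 and testosterone 5 and 6 (23.4 to 31.0) lay above every fetal library. For CYP11A1, SCARB1 and APOA1 the low adults lay above the fetal libraries. CYP11A1 had 1.34 to 19.3 in the fetal and 43.1 to 107 in the low adult libraries. SCARB1 had 57.9 to 60.8 and 83.9 to 119. APOA1 had 37.9 to 55.5 and 145 to 199.

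Other genes differed between fetal and low adult libraries. PTGFR had 0.676 to 2.14 RPM in the fetal libraries, 6.53 to 24.9 in the low adults and 92.3 to 424 in the high adults. CYP17A1 had 0.230 to 7.85 in the fetal libraries, 5.51 to 111 in the low adults and 0.0599 to 0.562 in the high adults, so that the high adults overlapped the fetal testosterone libraries (0.230 to 0.634) and lay below the fetal controls (1.75 to 7.85). MYH11 had 571 to 1351 in the fetal libraries, 2834 to 8385 in the low adults and 792 to 800 in the high adults. TRH and IHH were not analysed in the fetal libraries.

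**Figure D5:**
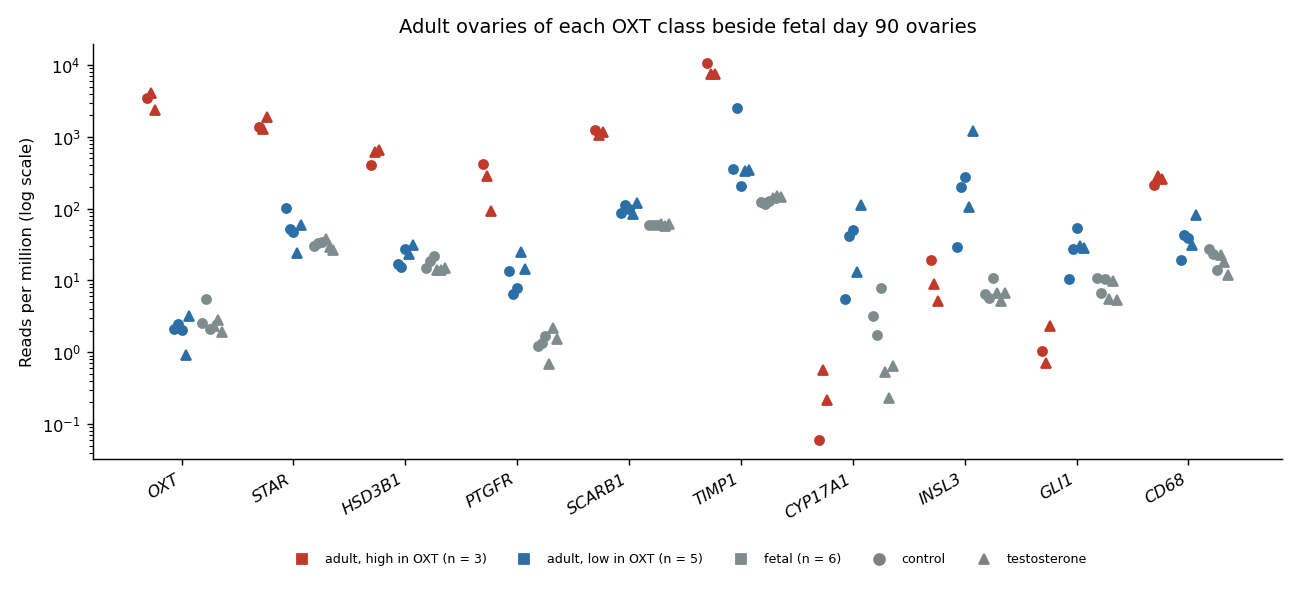
RPM on a log axis for selected genes in the 3 adult libraries high in OXT (red), the 5 low in OXT (blue) and the 6 fetal libraries (grey), 1 point per library, with triangles for testosterone. OXT, STAR and HSD3B1 are high in the red points alone, and the ranges of the blue and grey points overlap. For STAR every blue point other than testosterone 5 lies above every grey point.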

How the data were processed

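RNA of 8 adult and 6 fetal whole ovaries was measured by paired-end RNA sequencing. The submitters' processing notes name Trimmomatic 0.36 and STAR 2.5.2b. Which counter, genome build and annotation served is not given in the sources used here. Per gene and library the authors deposited a signal, the DESeq2-normalized count as the series text and the values show, and columns of log2 fold change and p-value per the file headers, which were not used. Every adult signal was within 0.01 of a whole multiple of the smallest step of its column in 100% of genes, so reads were recovered by division. The adult libraries stand in 2 tables of 15863 and 16074 genes; 15773 genes in both were joined, with control 6 taken from the deeper table. Control 4 and testosterone 5 and 6 had equal reads in both. Control 5 and testosterone 4 stood in the first table only, and control 7 and testosterone 7 in the second only.

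Joined reads were scaled with DESeq2 1.42.0 size factors, and values are these normalized counts. The comparison used limma 3.58.1 (R 4.3.3) with a trend, on log2(value + 1), keeping genes whose mean reached 10, with Benjamini-Hochberg adjustment over 15757 genes and a threshold of 0.05. A log2 difference understates the change of low genes. edgeR 4.0.16 and DESeq2 ran on the recovered reads as alternatives, besides other scalings, filters, pseudocounts, covariates, single tables and each library left out. The fits were also run on simulated data, and that outcome is not used here as support. Added after seeing the data were edgeR with treatment as a covariate and the class-by-treatment term.

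The members and the 29 gene lists were chosen with earlier results of these data known. Named were the 4 markers, measured genes of the steroid, receptor, peptide, cholesterol uptake, theca and granulosa lists, the leading 4 and up to 4 called members of largest difference of other lists, and the 15 named genes per direction of largest difference that were called, did not overlap and had a mean of at least 100. Defining markers are named as such. Depth counts reads and not molecules. Gene positions were not used, as the reference table is of another assembly.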

Additional observations from a re-analysis of the deposited data

Results flagged for a closer look

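In 18 of 142 gene levels and list sums examined, 1 of the 5 libraries low in OXT lay far from the other 4 on the log2 scale (a gap above 0.71 of the whole range); chance flags about 1 in 20 groups, and genes of a list move together. The 3 high libraries are too few for this comparison.

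Control 4 was the outlying library in 14 of the 18. It was the highest for the summed levels of smooth muscle genes (1.19e+06 normalized counts against 237807 to 356859), collagens (2.67e+06 against 444039 to 743167), interferon response genes (40359 against 16386 to 19581) and prostaglandin genes (16083 against 5160 to 5985). It was also the highest for ACTA2 (255838 against 45678 to 66473), PECAM1 (14189 against 1610 to 2166), HEY2, a transcription factor of vessels and heart (2386 against 151 to 312), ISG15 (1370 against 69.3 to 118) and PTGS2 (436 against 54.6 to 93.8). It was the lowest for the oocyte sum (704 against 1800 to 2288), FSHR (4.72 against 620 to 1612), PTCH1 (505 against 1810 to 2655), TM7SF2 (223 against 425 to 530) and CHGA (76.7 against 1597 to 2006).

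Of the other 4, control 5 was the highest for S100A12 (67.9 against 0.932 to 2.36) and the lowest for WT1 (2228 against 2742 to 2924). Control 7 was the lowest for MMP14 (7678 against 15349 to 20228). Testosterone 6 was the only low library with a read of SST (0.932 normalized counts, 1 read).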

How the results depend on the processing

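The 3 high libraries limit every comparison. Whether the replicate numbers pair the samples was not settled. Deviations of same-numbered libraries from their class means correlated at 0.12, -0.09, -0.05 and 0.41 for numbers 4, 5, 6 and 7. Both libraries of number 5 were in the low class, where subtracting a shared mean lowers the correlation. Those of number 7, with the highest value, occur only in the second adult table, so number and table cannot be told apart for them. With the number as a replicate block limma called 1644 genes, 1063 higher and 581 lower. Leaving out each library in turn gave 937 to 5259 calls, 724 to 2863 higher and 213 to 2396 lower. DESeq2 called 4256 genes, 1986 of them lower. The first adult table alone gave 1017 (805 higher, 212 lower) and the second 508 (437 higher, 71 lower), each with fewer libraries. A threshold of 0.1 gave 4137, 1782 of them lower. Treatment as a covariate left 624 lower genes with limma and 499 with edgeR. The other settings kept all 3 counts within 1.5 times. Without control 4, 211 different list genes were called, against 115 with it.

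In no setting did a called gene change sign over all 2618 calls. Of 90 called genes named in the text or in the closing section, 67 kept their call in each fit without 1 library. Treatment as a covariate ended 11 of the named calls, the replicate block 11, the first table alone 23 and the second 36. Uncalled differences changed sign for FSHR (-0.69) in the first table alone (log2 0.43) and for CD3E (-0.12) in the second table alone (0.039), and CD3E ranged from -0.43 to 0.053 with 1 library left out, changing sign without testosterone 4 or 7. The median difference of the stromal list (0.31) was -0.53 with edgeR and -0.55 with DESeq2, and that of the luteinization transcription factors (0.25) was -0.11 and -0.14; the cause was not tested.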

Other observations

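Of 5 genes encoded in the mitochondrial genome, 4 were higher in the high libraries by limma (10.4% of all genes were). They were chosen after their values were seen, so the count is a description of these 5 only. CYTB, the cytochrome of complex III, had 215115, 171569 and 280539 normalized counts in control 6, testosterone 4 and testosterone 7, and 99087, 81124, 99578, 68267 and 71548 in control 4, 5 and 7 and testosterone 5 and 6 (log2 difference 1.40, SE 0.25, limma adjusted p = 0.0083). ND5, of complex I, had 126753 to 186233 in the high and 43538 to 63767 in the low libraries (log2 difference 1.54, SE 0.22, limma adjusted p = 0.00326). ND6 and ATP6 were 3.13 and 2.88 times as high (limma adjusted p = 0.00149 and 0.0107). ATP6 lost its call with the replicate block and in each adult table alone, and CYTB in the second table alone. COX1 did not follow them in 1 library: it had 268 in testosterone 4, against 47622 and 95896 in the other high libraries and 12347 to 20049 in the low ones, and the reason was not tested.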
